A study of Mus musculus with 8 samples.

Results

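The genes described are the numbered cadherins and the unclustered protocadherins of the embryonic mouse kidney. They were taken by name as every row of the deposited table called Cdh or Pcdh followed by a number, with Pcdh11x included and the clustered Pcdha, Pcdhb and Pcdhg genes left out. That gave 35 of 23337 listed genes, 23 cadherins and 12 protocadherins. Of these, 28 had a mean of at least 10 normalised reads over the 8 libraries and were tested, among 13692 genes that met this minimum. Poly(A) RNA was sequenced from kidneys of E13.5 embryos on a mixed C57BL/6 background. The 4 control kidneys were Smo(flox/+), with a floxed and an intact copy of Smo. The 4 mutant kidneys were Foxd1Cre;Smo(flox/-), in which Cre made in the Foxd1-expressing stromal lineage removes the floxed copy while the other copy is null in every cell. Both groups thus carry a floxed allele, the mutants in addition carry the Cre allele, and each difference below belongs to that whole genotype. The labels do not say how many embryos or kidneys went into a library, so p-values measure the spread between these samples, which may be technical.

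Cadherins are calcium-dependent adhesion proteins that join a cell to its neighbours. Classical cadherins of type I and type II bind a like cadherin on the next cell and are tied to actin through catenins, so the set a cell makes helps to decide which cells it stays with. In the kidney, E-cadherin (Cdh1) and Ksp-cadherin (Cdh16) belong to epithelial tubules, K-cadherin (Cdh6) to the forming nephron, VE-cadherin (Cdh5) to vessels and Cdh11 to mesenchyme. The unclustered protocadherins are weaker adhesion proteins, studied mostly in nerve cells. Smo passes the hedgehog signal into the cell.

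In mutant kidneys 1 of the 28 tested members fell and none rose. That gene was Cdh8, a type II cadherin known mainly from neurons, whose level dropped to 28.0% of the control level. None of the more abundant cadherins of the kidney, among them Cdh11, Cdh2, Cdh5, Cdh1 and Cdh16, was called. Another 3 members with few reads, Pcdh20, Cdh9 and Pcdh11x, had every mutant library below every control library, and their p-values did not survive adjustment over all genes. Cdh9 met the minimum mean of 10 through its controls alone. Groups did not overlap, in either direction, for 5 of the 28 tested members and for 5.31% of all tested genes. Calls are from limma on log2(normalised count + 1), two-sided, at a Benjamini-Hochberg adjusted p under 0.05 over the 13692 tested genes. Fold changes are on this scale, which understates those of genes with few reads. By that rule 0.570% of all tested genes were called and 0.446% were called lower.

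Libraries held 10288191 to 13494079 reads in genes. Smo itself stood at 2152 to 2294 normalised reads in controls and 509 to 553 in mutants (log2 fold change -2.06, adjusted p = 1.87e-10). The kidney markers were present in each library, with summed levels of 10 genes per compartment of 6474 to 9522 for the ureteric epithelium, 7804 to 9039 for nephron progenitors and early nephrons, 28297 to 41786 for stroma and 4652 to 6071 for endothelium. The nephron progenitor sum was higher in each mutant (8638 to 9039) than in any control (7804 to 8266), with none of its genes called. The 12 skeletal muscle markers had their largest sums in control 2 (3561), mutant 2 (1939) and control 1 (616), with at most 297 elsewhere. The 4 Y-linked genes gave a sum of 3504 for control 4, 3270.4 for mutant 2 and at most 2.86 for the rest. In whole-kidney RNA, fewer cells of a type and less RNA per cell cannot be told apart.

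Levels were compared between genes per kilobase (kb) of exon, counting the union of all GENCODE exons of a gene. Cdh11 led with 749 normalised reads per kb over the 8 libraries, 26.7% of the sum over the 35 members. Its libraries lay between 699 and 803 and overlapped with those of no other member. The next 6 were Cdh5 (312), Cdh2 (287), Pcdh18 (253), Cdh16 (235), Cdh1 (232) and Cdh3 (216), and each of them overlapped in library range with the one after it. Cdh4 followed at 98.3 per kb, between 89.4 and 108, below the lowest library of these 6. At the other end, 7 members were below 10 normalised reads and were not tested. The most abundant of these was Cdh18, with a mean of 9.38, while Pcdh15 (11.9) and Cdh26 (11.95) were the lowest that were tested. The other untested members had from 9 recovered reads in all 8 libraries together (7 in controls and 2 in mutants for Cdh7, and 8 and 1 for Cdh17, the LI-cadherin of gut) to 43 (32 and 11 for Cdh23, a cadherin of hair cell tip links).

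**Figure D1:**
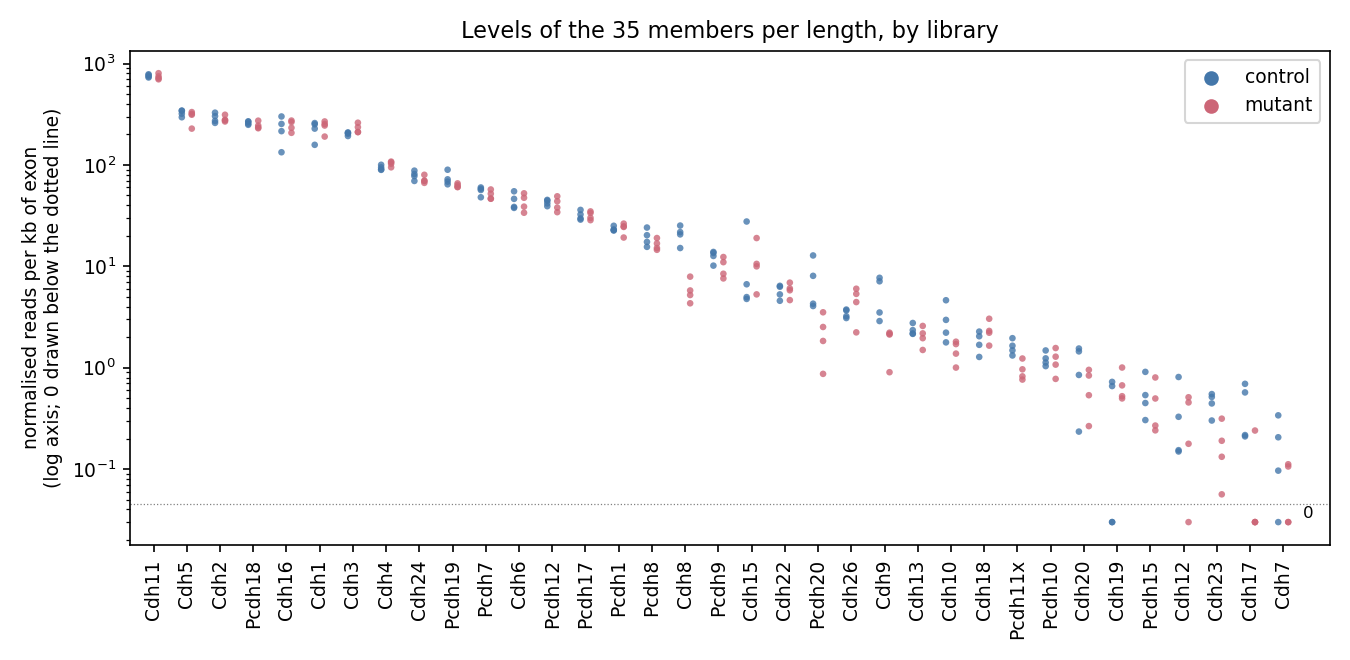
Normalised reads per kb of exon (log axis) for the 35 members in order of their mean over 8 libraries, with 1 point per library, controls left and mutants right. Levels run from 749 for Cdh11 to 0.11 for Cdh7, and the controls and mutants of Cdh8 stand apart.

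Cdh8 was read in control libraries 1 to 4 at 168, 195, 117 and 159.8 normalised reads and in mutant libraries 1 to 4 at 33.4, 44.7, 40.3 and 61.2. Every mutant was below every control, and the highest mutant held about as much as 52.2% of the lowest control. The means were 160.2 ± 32.4 and 44.9 ± 11.8 (SD, n = 4 each), a log2 fold change of -1.82 with an SE of 0.197 and a 95% interval from -2.25 to -1.39 (adjusted p = 0.0062). By exact permutation of the 8 libraries (two-sided) p was 0.0286, and none of the 70 arrangements can give less. Recovered reads were 678 over the controls and 170 over the mutants, so the values do not rest on a handful of reads. In the authors' deposited table Cdh8 has a fold change of 0.28 and an adjusted p of 2.47e-09, and it is the only member among the 117 genes listed there under 0.05. Omitting any 1 library kept the call, at log2 fold changes between -1.98 and -1.69 and adjusted p of at most 0.0301. Without both libraries numbered 2 the fold change was -1.73 and the call was lost (adjusted p = 0.0671), in a fit that called 2 genes in all.

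Stromal markers moved with the group in which Cdh8 fell. Of 10 stromal markers 9 had negative fold changes, 4 were lower at an unadjusted p under 0.05 and 1, Foxd1, was called. Tcf21 was the exception in sign (log2 fold change 0.02). Over all tested genes 48.1% had negative fold changes, 5.17% were lower at that level and 0.446% were called lower. Only the mutants carry the Foxd1Cre allele, so its part in the Foxd1 value cannot be told apart from that of Smo loss. The sum of the 10 stromal markers ran from 32911 to 41786 in controls and from 28297 to 33973 in mutants. None of the 10 was at 0, and the collagen genes Col3a1 and Col1a1 gave 29.2% and 18.8% of the sum. Cdh8 per 1000 reads of this sum was 3.21 to 4.86 in controls and 1.18 to 1.80 in mutants, a log2 difference of -1.58. Per 1000 reads of Cdh11, the mesenchymal cadherin, it was 17.1 to 30.1 and 5.37 to 8.56, a log2 difference of -1.82. Both ratios were chosen after the values were seen. Since Cdh8 alone already separated the groups, they describe the size of the difference and are no further test of it.

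Cdh8 lies on chromosome 8 from 99024471 to 99416471 of GRCm38, on the minus strand, per GENCODE vM21. An exon of Gm15679 on the opposite strand overlaps its exons, and if reads were counted without strand the pair cannot be told apart. The chromosome carries 8 members, of which all 8 were tested, 1 was called, and 4 had negative and 4 positive fold changes. Cdh11 is the next member, 3.22 Mb away, then come Cdh5, Cdh16, Cdh3 and Cdh1. None of these 5 was called. Smo lies on chromosome 6 and Foxd1 on chromosome 13, which carry 0 members each.

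The sequence before the RefSeq start of Cdh8 is shown with those of Cdh9, Cdh10 and Pcdh20, the other members with a log2 fold change under -0.8. Each run holds the 250 bases before the annotated start in RefSeq GRCm38.p6, 5′ to 3′ on the gene's own strand, with CG dinucleotides (CpG) in capitals. They are chr8:99416472-99416721 on the minus strand for Cdh8, chr15:16728665-16728914 and chr15:18820079-18820328 on the plus strand for Cdh9 and Cdh10, and chr14:88471397-88471646 on the minus strand for Pcdh20.
Cdh8: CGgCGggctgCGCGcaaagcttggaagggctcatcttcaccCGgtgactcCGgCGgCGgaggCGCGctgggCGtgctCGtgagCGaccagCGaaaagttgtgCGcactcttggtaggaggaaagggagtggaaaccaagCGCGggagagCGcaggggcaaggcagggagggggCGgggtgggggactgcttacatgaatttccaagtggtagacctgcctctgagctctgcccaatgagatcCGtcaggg
Cdh9: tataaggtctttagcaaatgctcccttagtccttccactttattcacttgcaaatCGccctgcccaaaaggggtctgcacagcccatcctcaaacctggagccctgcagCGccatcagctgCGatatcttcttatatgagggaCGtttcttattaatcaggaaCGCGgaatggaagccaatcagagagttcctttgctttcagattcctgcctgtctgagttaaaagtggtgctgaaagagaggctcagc
Cdh10: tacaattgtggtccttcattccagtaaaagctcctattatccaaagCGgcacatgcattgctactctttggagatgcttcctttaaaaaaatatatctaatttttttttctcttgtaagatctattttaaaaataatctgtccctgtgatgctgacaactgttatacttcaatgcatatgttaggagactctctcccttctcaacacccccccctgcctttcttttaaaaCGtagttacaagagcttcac
Pcdh20: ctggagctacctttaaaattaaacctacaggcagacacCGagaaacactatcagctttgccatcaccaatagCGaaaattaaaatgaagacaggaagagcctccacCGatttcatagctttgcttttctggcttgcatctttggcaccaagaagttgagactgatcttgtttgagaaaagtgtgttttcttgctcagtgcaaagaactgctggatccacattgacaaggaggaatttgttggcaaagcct
The Cdh8 run is rich in CpG, with 20 CpG and 64.4% G and C, where the median over all 32851 windows of the table is 6 CpG and 52.4%. Cdh9 has 6 CpG, Pcdh20 has 3 and Cdh10 has 2. The 4 runs shown therefore do not share this feature. In GENCODE, however, Cdh10 starts at 18818947 and Cdh9 at 16728756. The Cdh10 run thus lies inside the GENCODE gene and the Cdh9 run partly so, and sequence before those GENCODE starts was not compared. A high CpG count was not particular to Cdh8. In windows with 50 further bases after the start, members ran from 2 CpG (Cdh10) to 38 (Cdh22), with 21 for Cdh8. The median was 14 CpG over the 25 member windows, against 7 over all 32851. The consensus binding site of Gli factors, TGGGTGGTC on either strand, was searched in windows from 250 bases before to 50 after each start. It was in 0 of the 25 windows found for 22 members and in 0.253% of all 32851 windows. The E-box CAGGTG on either strand, which Snail and Zeb factors bind, was in 5 of the 25 windows, those of Cdh7, Pcdh7 and Pcdh15, and in 20.2% of all windows. Members without a window, among them Cdh1, Cdh2, Cdh3, Cdh4, Cdh5, Cdh11 and Cdh16, were not searched for either site.

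Among the other type II cadherins, Cdh9 and Cdh10 had lower values in the mutants at an unadjusted p under 0.05, as did 5.17% of all tested genes, and the other 5 tested did not. Cdh9 and Cdh10 are neighbours on chromosome 15, with 1.96 Mb between them, and both are known from neurons. For Cdh9 controls 1 to 4 held 10.2, 12.4, 25.2 and 27.3 normalised reads and mutants 1 to 4 held 7.64, 3.19, 7.84 and 7.52. The groups did not overlap, and controls 1 and 2 lay close to the mutants. Their means were 18.8 ± 8.70 and 6.55 ± 2.24, so Cdh9 met the minimum of 10 through its controls alone (log2 fold change -1.34, 95% interval -2.21 to -0.46, unadjusted p = 0.0061, adjusted p = 0.240). With the summed log2 level of the muscle markers as a covariate Cdh9 passed the threshold (-1.54, adjusted p = 0.0498). Exons of Gm49127 on the opposite strand overlap those of Cdh9.

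For Cdh10 controls 1 to 4 held 29.8, 46.5, 22.3 and 17.9 normalised reads and mutants 1 to 4 held 18.1, 13.8, 10.1 and 17.2. Control 4 was inside the range of the mutants. The log2 fold change was -0.87 (95% interval -1.55 to -0.19, unadjusted p = 0.0164, adjusted p = 0.378). It was -0.44 without controls 1 and 2. Cdh6, on the same chromosome and 3.56 Mb from Cdh9, held 496, 418, 340.1 and 348 in controls and 474, 428, 305 and 350.1 in mutants. The groups covered nearly the same range (log2 fold change -0.04, 95% interval -0.37 to 0.28), and its sign was positive in 4 of 21 alternative fits.

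None of the other type II cadherins was called, and Cdh11, the most abundant, had the narrowest interval of them. Cdh11 held 6626, 6489, 6843 and 6975 normalised reads in controls and 6224, 6374, 6649 and 7152 in mutants. The groups overlapped, and the interval of the log2 fold change, -0.13 to 0.07 around -0.03, does not reach a loss of the size seen for Cdh8. Cdh5, the adhesion protein of endothelial junctions, held 1442, 1439, 1345 and 1241 in controls and 1396, 1342, 959 and 1315 in mutants. Mutant 3 was the low library, and the difference was not called (log2 fold change -0.14, interval -0.36 to 0.09, adjusted p = 0.808). Cdh24 stood at 276 ± 26.7 and 249 ± 20.4 (log2 fold change -0.14) and Cdh22 at 20.9 ± 3.24 and 21.7 ± 3.45 (0.05, interval -0.42 to 0.52). Neither passed the test.

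**Figure D2:**
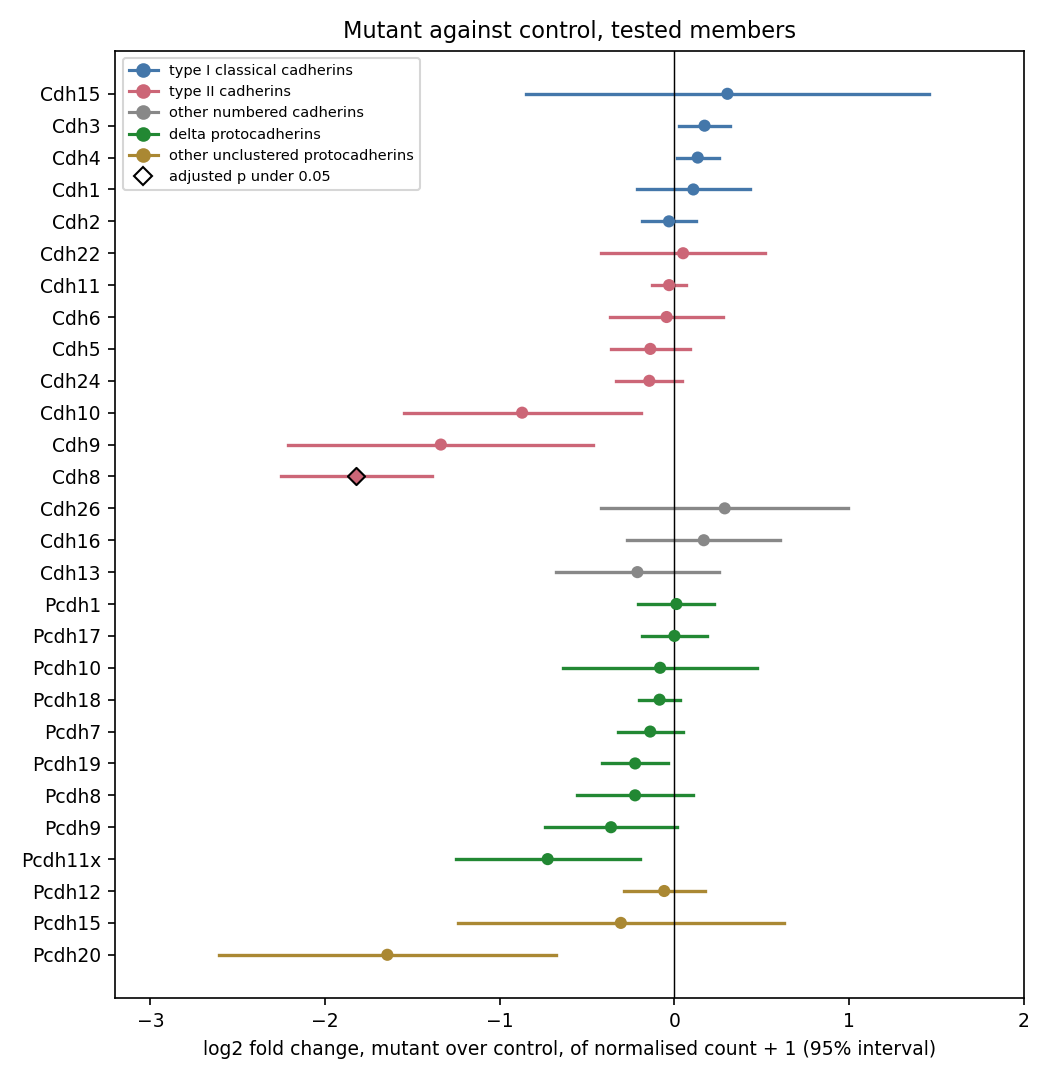
Log2 fold change of mutant over control with its 95% interval for the 28 tested members, coloured by subfamily, with a diamond where the adjusted p was under 0.05. Cdh8 at -1.82 carries the diamond, and the intervals of Cdh9, Cdh10, Pcdh11x, Pcdh19 and Pcdh20 lie below 0 without a call.

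Of the 5 type I cadherins, 4 had positive fold changes, as did 7104 of all 13692 tested genes, and none was called. Cdh3, P-cadherin, held 889.7, 917, 909 and 845 normalised reads in controls and 927, 1144, 1034 and 923 in mutants. The groups did not overlap, by a margin of 5.65 reads between the highest control and the lowest mutant. Its log2 fold change was 0.17 (95% interval 0.03 to 0.32, unadjusted p = 0.0241, adjusted p = 0.438). Cdh4, R-cadherin, held 728, 686, 649 and 656 in controls and 769.7, 783, 745 and 687 in mutants. Control 1 lay within the mutant range, and the log2 fold change was 0.13 (interval 0.01 to 0.25, adjusted p = 0.494). Cdh3 lies 46.1 kb from Cdh1 on chromosome 8.

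Cdh1, the cadherin of epithelia, held 1184, 1151, 1043 and 722 normalised reads in controls and 1228, 1159, 1119 and 871 in mutants. Library 4 was the lowest of each group, and the groups overlapped (log2 fold change 0.11, 95% interval -0.22 to 0.43). Without control 4 its fold change was -0.05. Cdh2, N-cadherin, which is made by mesenchyme and by parts of the early nephron, held 2193, 2095, 2445 and 2644 in controls and 2164, 2249, 2220.1 and 2522 in mutants. The groups overlapped throughout, with an interval from -0.19 to 0.13 around -0.03, and without control 4 the fold change was 0.03.

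Cdh15, M-cadherin of muscle precursors, was set apart by single libraries. Control 2 held 89.9 normalised reads and mutant 2 held 61.8, against 15.5 to 21.6 in the other controls and 17.2 to 34.4 in the other mutants. The same 2 libraries had the highest muscle marker sums. Elsewhere the order differed, since mutants 3 and 4 with 32.5 and 34.4 reads of Cdh15 had muscle sums of 132 and 288, below control 1 with 16.2 reads and a sum of 616. Its log2 fold change was 0.30 with an interval from -0.85 to 1.46. Single libraries moved it, to 0.88 without control 2 (unadjusted p = 0.0358, adjusted p = 0.650), 0.61 without mutant 1, and between 0.010 and 0.21 without mutant 2 or control 1, 3 or 4.

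Of the 3 tested members outside the classical types, Cdh16, Cdh13 and Cdh26, none was called. Cdh16 held 1139.8, 962, 817 and 506 normalised reads in controls and 1039, 1004, 882 and 786 in mutants. Control 4 was the lowest library, and the mutants lay within the range of the controls (log2 fold change 0.17, 95% interval -0.27 to 0.61). Without control 4 the sign of Cdh16 turned (-0.06), as it did for Cdh1. Cdh26 held 11.1, 9.30, 9.69 and 11.3 in controls and 13.4, 18.1, 6.72 and 16.1 in mutants. It was higher in 3 of 4 mutants than in any control and lower in mutant 3. Cdh13, T-cadherin, which is held in the membrane by a lipid anchor and lacks a catenin-binding tail, stood at 26.5 ± 3.15 and 23.1 ± 5.09 (log2 fold change -0.21).

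All 12 protocadherins were tested, 10 had negative fold changes (83.3%, against 48.1% of all tested genes) and none was called. The largest difference was in Pcdh20, which held 44.2, 70.3, 22.3 and 23.5 normalised reads in controls and 4.77, 13.8, 10.1 and 19.3 in mutants. Every mutant was below every control, and controls 1 and 2 were well above controls 3 and 4. The means were 40.1 ± 22.5 and 12.01 ± 6.14 (log2 fold change -1.64, 95% interval -2.61 to -0.68, unadjusted p = 0.0032, adjusted p = 0.170). DESeq2 on recovered reads called it (adjusted p = 0.0212) and edgeR's quasi-likelihood test did not (adjusted p = 0.161). Without controls 1 and 2 its fold change was -1.02 (adjusted p = 0.567).

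Pcdh11x and Pcdh19 are the 2 members on the X chromosome, and both had lower values in the mutants. Pcdh11x held 23.0, 20.7, 18.4 and 27.3 normalised reads in controls and 11.5, 10.6, 13.4 and 17.2 in mutants. The groups did not overlap (log2 fold change -0.73, 95% interval -1.25 to -0.20, unadjusted p = 0.0113, adjusted p = 0.315). Pcdh19, whose human counterpart is an epilepsy gene, held 674, 716, 755 and 938 in controls and 635, 633, 662 and 688 in mutants. Control 1 lay within the mutant range, and control 4 was the highest (log2 fold change -0.22, adjusted p = 0.445). Without control 4 the fold change of Pcdh19 was -0.13. Control 4 was 1 of the 2 libraries with Y-linked transcripts. The other was mutant 2, so each group held 1 such library. The alternative fits included a fit with the summed log2 level of the Y-linked genes as a covariate. Both genes kept negative fold changes in every alternative fit. Their unadjusted p was under 0.05 in 20 of 20 such fits for Pcdh11x and in 19 of 21 for Pcdh19. Beyond that covariate the part of embryo sex in these values was not tested. Exons of Gm26851 on the opposite strand overlap those of Pcdh19.

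**Figure D3:**
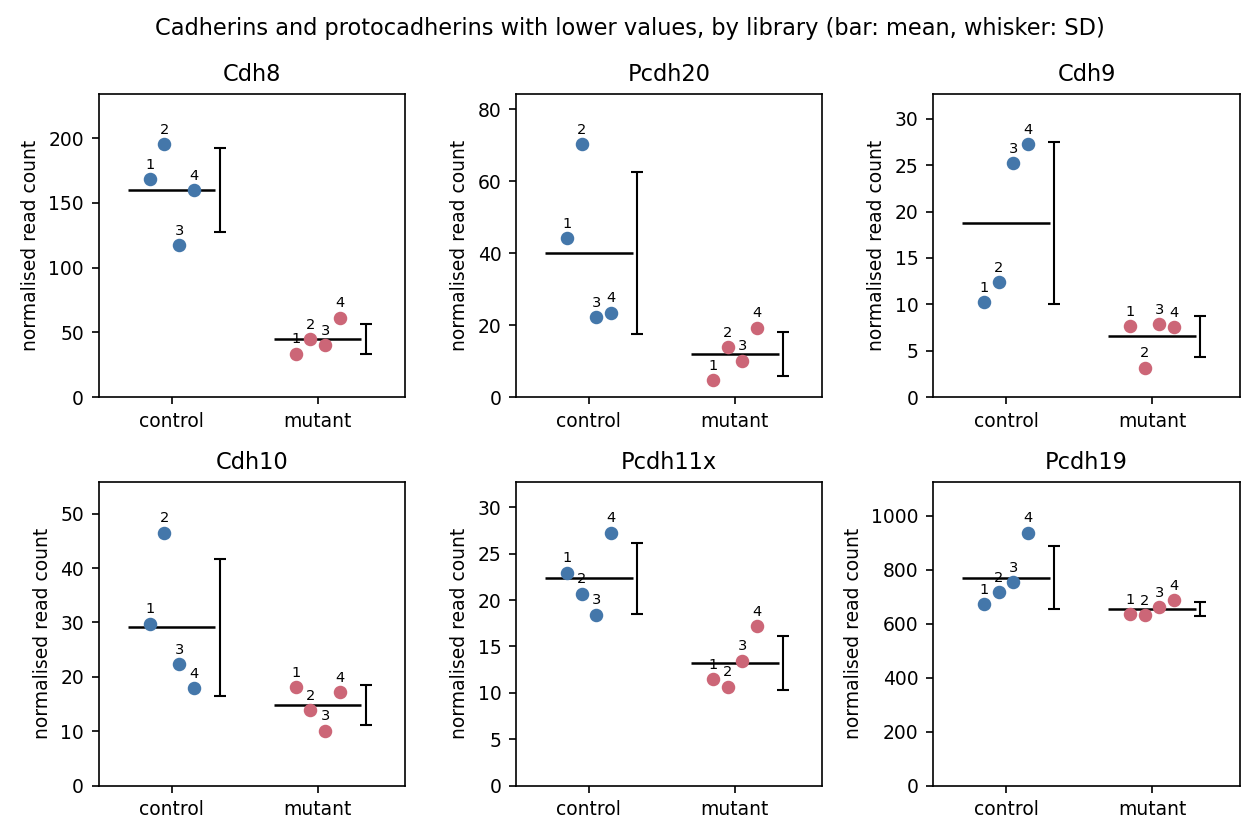
Normalised read counts of the 6 members with lower mutant values at an unadjusted p under 0.05, 1 point per library with its number, the bar at the group mean and the whisker at 1 SD. The groups of Cdh8, Pcdh20, Cdh9 and Pcdh11x do not overlap, while 1 control of Cdh10 and 1 of Pcdh19 lie within the mutant range.

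None of the other delta protocadherins reached an unadjusted p under 0.05. Pcdh18, the most abundant protocadherin, held 1370.3, 1444, 1430.0 and 1335 normalised reads in controls and 1312, 1257, 1234 and 1466 in mutants. Mutant 4 was the highest of all 8 and the other mutants were the lowest (log2 fold change -0.09, 95% interval -0.20 to 0.03). Pcdh17 stood at 413 ± 41.9 and 413 ± 38.1, with a fold change that rounds to 0 and an interval from -0.19 to 0.19. For Pcdh7 the values were 590.2 ± 56.3 and 536 ± 54.9, and for Pcdh1 206 ± 10.3 and 209 ± 27.3. Pcdh9 (85.2 ± 11.4 and 66.8 ± 15.0, unadjusted p = 0.0570), Pcdh8 (87.8 ± 16.9 and 74.3 ± 9.05), a paraxial protocadherin, and Pcdh10 (19.4 ± 3.05 and 18.6 ± 5.29) were not called either. Pcdh12, a protocadherin of endothelium, held 269, 274, 237 and 253 in controls and 265, 297, 207 and 229.8 in mutants. The groups overlapped, and mutant 3 was the lowest. Pcdh15, which pairs with Cdh23 in the hair cell tip link, had 13.1 ± 6.14 and 10.7 ± 6.17.

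At an unadjusted p under 0.05 there were 6 lower members (Cdh8, Cdh9, Cdh10, Pcdh11x, Pcdh19 and Pcdh20) and 2 higher (Cdh3 and Cdh4). These 8 of 28 tested are 28.6%, against 8.70% of all tested genes, and the 6 lower are 21.4% against 5.17%. These shares are a description and are not read as support, since Cdh9 is in them and met the minimum of reads through its controls alone. Groups did not overlap for 5 of 28, or 17.9%, against 5.31% of all tested genes. The median log2 fold change of the 28 was -0.08, against 0.0037 over all tested genes. Of the 6 lower members 4 had a mean of 10 to 50 reads, a band that held 10 members and in which 5.65% of all 2231 genes were lower at that level. By type, medians were 0.13 for type I, -0.14 for type II, -0.14 for delta protocadherins and -0.31 for the other 3 protocadherins. The clustered protocadherins, left out above, had medians of -0.19 over 18 tested Pcdhb genes and -0.23 over 21 tested Pcdhg genes, with none called. Their genes share exons or are near copies, so reads may be split between them.

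Since Cdh8, Cdh9 and Cdh10 are best known from nerve tissue, markers of neurons and Schwann cells were read beside them. The 12 markers summed to 995 to 1148 in controls and 1065 to 1176 in mutants, so the groups overlapped. Of 8 tested, 5 had negative fold changes, none was called, and 2 (Elavl4 and Erbb3) were higher at an unadjusted p under 0.05. Of all 13692 tested genes 48.1% had negative fold changes and 483 were higher at that level. No marker was at 0 in every library, and low ones were Elavl3 (1.88 to 6.80) and Sox10 (0.969 to 12.4). Of the skeletal muscle markers 11 were tested, all 11 with negative fold changes and none called, and their sums overlapped. These genes were high together in control 2 (sum 3561), so the 11 signs are not separate results.

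Cdh1, Cdh16, Cdh5 and Pcdh12 had their lowest values in the libraries with the lowest marker sums of their compartments, as the plot of members and marker lists shows. Cdh6, of the forming nephron, did not. It was lowest in mutant 3 (305), while the sum for nephron progenitors and early nephrons was lowest in control 3 (7804). The ureteric sum was lowest in control 4 (6474), the library with the least Cdh1 and Cdh16. It was highest in mutant 1 (9522), which had the most Cdh1, while control 1 had the most Cdh16. The endothelial sum was lowest in mutant 3 (4652), where Cdh5 and Pcdh12 were also lowest. Of the 10 ureteric markers 8 had positive fold changes (median log2 fold change 0.20), 5 were higher at an unadjusted p under 0.05 and none was called. Over all 13692 tested genes 7104 had positive fold changes and 483 were higher at that level. The part of these compartments in the members' values was not tested.

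**Figure D4:**
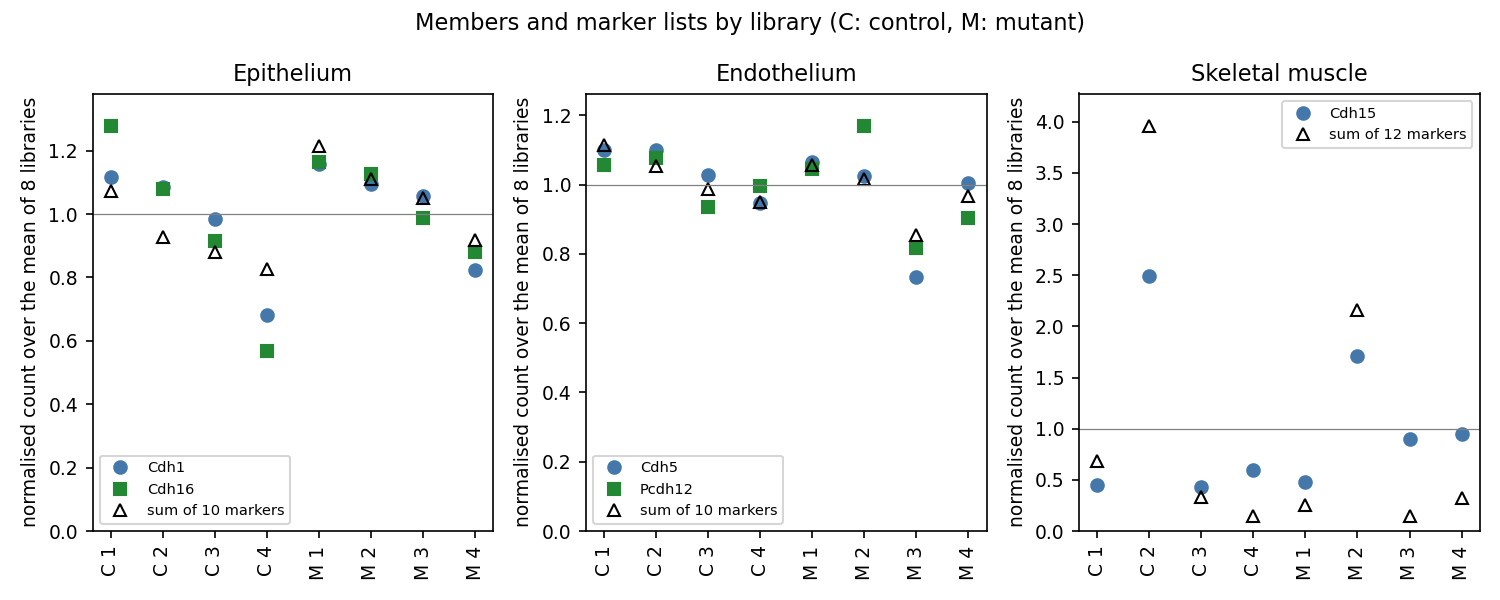
Normalised counts of 5 members and the sums of their compartments' markers, each divided by its mean over the 8 libraries (C, control; M, mutant). Cdh1 and Cdh16 are lowest in control 4, Cdh5 and Pcdh12 in mutant 3, and Cdh15 is highest in control 2 and mutant 2.

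The partners and regulators of cadherins held no called gene. Of 13 catenins and plakophilins, which link cadherins to the cytoskeleton, 11 were tested, 7 had positive fold changes, none reached an unadjusted p under 0.05, and the median was 0.04. All 14 other junction partners found in the table were tested, and 2 (14.3%) were lower at that level, against 5.17% of all tested genes. Groups did not overlap for 1 of the 14, against 5.31% of all tested genes. Vinculin (Vcl), which binds actin at junctions under tension, stood at 1696 ± 66.2 and 1532 ± 23.7 without overlap (log2 fold change -0.15, adjusted p = 0.136), and Lima1, an actin-binding protein, at 1326 ± 102 and 1186 ± 27.9 (adjusted p = 0.332). Among 9 transcription factors that act on cadherin genes, Twist1 (314 ± 54.3 and 233 ± 29.5, adjusted p = 0.210) and Twist2 (112 ± 15.9 and 64.4 ± 25.4, adjusted p = 0.168) had the lowest p-values. In the wider superfamily 12 genes were tested, and Celsr1, a planar polarity cadherin (1015 ± 104 and 1159 ± 64.7, adjusted p = 0.384), and Ret, a receptor with cadherin-like domains that is also in the ureteric marker list (704 ± 78.1 and 883 ± 77.5, adjusted p = 0.142), were higher at an unadjusted p under 0.05. Of all 13692 tested genes 483 were higher at that level. Only 2 of 9 desmosomal cadherins had enough reads to be tested, and neither was called.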

How the data were processed

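RNA-seq of 8 kidney libraries was analysed, 4 control and 4 mutant. TopHat2 2.0.12, DESeq2 1.4.5 and HTSeq are named in the submitters' processing notes, with mm10 (GRCm38) as the build. Which gene models were counted, and whether strand was used, is not given. The authors deposited signal values per library, which are gene counts divided by 1 size factor, with group means, their ratio (fold change), its log2 and raw and adjusted p-values in the same deposited table. Values were whole multiples of each library's smallest value (100% within 0.01 read), which gave back the reads. Library totals limit counting error only.

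Here log2(value + 1) was fitted with limma 3.58.1 (intensity trend, genotype alone) in R 4.3.3 for genes with a mean of at least 10, and p-values were adjusted over all of these. Alternatives used edgeR 4.0.16 and DESeq2 1.42.0 on recovered reads, other pseudocounts, filters, scalings and covariates, the sample number as a block, and fewer libraries. On simulated data 88.0% of 50 genes changed 2-fold were recovered among 13692, and 10 of 154 calls were false. For 50 genes changed 1.5-fold the share was 60.0%, and for 50 changed 1.25-fold it was 46.0%. Simulated counts were drawn separately for each gene, so differences between libraries shared by many genes were not modelled. The changed genes were drawn from all 13692, of which 11461 had a mean of at least 50, and recovery was not split by level. These shares thus do not describe members with fewer reads. No 2 libraries of a group were alike within counting noise (chi-square over its degrees of freedom from 2.89 to 11.0). Positions and exon lengths came from GENCODE vM21. Promoters came from RefSeq, with 22 of 35 members found. Members with values in every library were those at an unadjusted p under 0.05 or without overlap, the 2 highest per length in each type, and Cdh1, Cdh2, Cdh5, Cdh6, Cdh11 and Cdh16. Some marker genes that enter the sums are not reported singly here. Members and lists were chosen with earlier results of these data known. Figures were drawn with matplotlib 3.10.9.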

Additional observations from a re-analysis of the deposited data

Results flagged for a closer look

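In 56 groups of 4 libraries (28 members in 2 genotypes), 2 held a library far from the other 3, where chance gives about 2.8. Cdh15 in control 2 was at 89.9 normalised reads, against 15.5 to 21.6 in the other controls. Cdh9 in mutant 2 was at 3.19, against 7.52 to 7.84 in the other mutants.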

How the results depend on the processing

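Over 21 alternative fits the number of members called was 1 except with DESeq2 (2, Cdh8 and Pcdh20), with the muscle level as a covariate (2, Cdh8 and Cdh9) and without both libraries numbered 2 (0, while 5 members reached an unadjusted p under 0.05, against 8). A minimum mean of 50 left 4 members at an unadjusted p under 0.05, since it removed 10 members from the test. Over all genes 78 were called, against 214 with DESeq2, 29 without controls 1 and 2, 2 without the libraries numbered 2, and 18 to 185 with 1 library left out. With the replicate number as a block 232 genes were called, Cdh8 was the only member among them, and 11 members reached an unadjusted p under 0.05, with Cdh1, Pcdh7 and Pcdh9 added. The deviations of same-numbered libraries correlated at 0.325, 0.287, 0.294 and 0.0635, and controls 1, 2 and 3 correlated best with the mutant of their own number, which hints at pairs. The labels tie nothing else to the numbers and the 4th pair was under 0.1, so the samples were treated as sharing only a number. Of the 28 tested members 19, among them the 8 at an unadjusted p under 0.05, kept their sign in each fit. The 9 others were not called in any. With 1 library left out the fold change ran from -0.051 to 0.21 for Cdh1, -0.083 to 0.029 for Cdh2, -0.15 to 0.066 for Cdh6, -0.064 to 0.33 for Cdh16, -0.042 to 0.15 for Cdh22, -0.043 to 0.11 for Pcdh1, -0.23 to 0.091 for Pcdh10, -0.15 to 0.027 for Pcdh12 and -0.045 to 0.062 for Pcdh17. Without controls 1 and 2 the sign turned for Cdh6 (0.16), Pcdh1 (-0.032) and Pcdh12 (0.015), without the libraries numbered 2 for Pcdh1 (-0.018), with the muscle covariate for Cdh6 (0.014) and Pcdh17 (-0.022), with quantile normalisation for Pcdh10 (0.019), and for Pcdh17 with DESeq2 (-0.0038), edgeR (-0.0048) and TMM scaling (-0.0024). The cause was not tested. Depth limits what can be said of the 7 untested members and of those with fewer than 50 normalised reads.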

Other observations

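Controls differed among themselves in opposite directions for members with lower mutant values. Cdh9 was at 10.2 and 12.4 in controls 1 and 2 and at 25.2 and 27.3 in controls 3 and 4, and Foxd1 at 1038 and 1138 against 1693 and 2039. Pcdh20 was at 44.2 and 70.3 in controls 1 and 2 and at 22.3 and 23.5 in controls 3 and 4, and Cdh10 at 29.8 and 46.5 against 22.3 and 17.9. Without controls 1 and 2 the log2 fold change was -1.91 for Cdh9, -1.02 for Pcdh20, -0.44 for Cdh10 and -1.62 for Cdh8, which kept its call (adjusted p = 0.0328). This was noticed in the data and was not tested further.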
